A study of Mus musculus with 14 samples.

Results

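The genes described here are p53 and its targets: Trp53, which encodes the transcription factor p53, its inhibitors Mdm2 and Mdm4, and the target genes Phlda3, Perp, Ccng1, Zmat3, Trp53inp1, Sesn1 and Aen. They were taken by symbol from a table of raw counts of 52636 gene identifiers, each symbol matched 1 identifier, and all 10 passed the filter on low counts that left 11994 genes for testing. The cell cycle inhibitor Cdkn1a and the BCL2 family are not among them and appear only as other genes of the pathway.

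RNA came from leukemic progenitors positive for cKit and negative for CD11b, sorted from mice transplanted with I1DN cells, the labels' name for a mouse leukemia with mutant IDH1. AG120, also known as ivosidenib, inhibits the mutant enzyme. The 14 libraries, taken as 1 mouse each because cells were sorted per mouse, fell into 5 groups: relapse after a 28-day course of AG120 (n = 4), treatment with AG120 (n = 2 at day 14, n = 3 at day 5) and treatment with vehicle (n = 2 at day 14, n = 3 at day 5). All 5 groups carried I1DN cells, and the relapse mice had no vehicle group of their own. The sources used here do not give the time of relapse, the age of the mice or any sort marker that separates leukemic from host cells. Libraries were made with the QuantSeq 3′ kit, which makes 1 fragment per transcript at the poly(A) tail, and counts are therefore not divided by gene length.

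In unstressed cells p53 is made and destroyed continuously: Mdm2, a ubiquitin ligase, marks it for degradation, and its relative Mdm4 blocks its activity. DNA damage and other stresses free p53 from both, and it then binds paired half-sites in the DNA of its target genes, Mdm2 among them, whose products arrest the cell cycle, repair DNA, limit growth signalling or promote cell death. In blood-forming cells the pathway is known for restraining stem and progenitor cells under stress, and much of its control acts on the p53 protein, which RNA counts do not measure.

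The p53 binding motif was searched in the promoter windows that RefSeq (GRCm38.p6) gave for 7 of the 10 genes, since it is the sequence through which p53 acts on such genes. Each window runs from 250 bases before to 50 bases after a transcript start. Perp, Zmat3 and Trp53inp1 had no entry. A perfect match to the 10-base p53 half-site consensus, on either strand, lay in a window of 5 of the 7 genes (Trp53, Mdm2, Ccng1, Sesn1 and Aen), against 9.55% of 27025 genes with a window. A 20-base site was 2 adjoining half-sites with at most 3 mismatches in all, none of them at the core C or G of either half-site. Such a site lay in a window of 4 of the 7 (Trp53, Ccng1, Sesn1 and Aen), against 1.63% of genes. The half-site forms part of the 20-base site, so the counts overlap. The genes were chosen as p53 and its targets, so a share above that of all genes follows from the choice and is not a test. A match is a description of letters and does not show binding. The 4 windows are shown because these genes changed after AG120 in both directions, and capitals mark the 20-base match:
Trp53 (chr11:69580109-69580408, plus strand): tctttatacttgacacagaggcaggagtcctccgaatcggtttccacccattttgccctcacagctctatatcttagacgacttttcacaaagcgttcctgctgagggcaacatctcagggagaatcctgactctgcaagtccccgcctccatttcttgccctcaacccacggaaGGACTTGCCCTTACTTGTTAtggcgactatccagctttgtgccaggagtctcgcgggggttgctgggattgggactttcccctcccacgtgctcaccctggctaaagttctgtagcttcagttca
Ccng1 (chr11:40755237-40755536, minus strand): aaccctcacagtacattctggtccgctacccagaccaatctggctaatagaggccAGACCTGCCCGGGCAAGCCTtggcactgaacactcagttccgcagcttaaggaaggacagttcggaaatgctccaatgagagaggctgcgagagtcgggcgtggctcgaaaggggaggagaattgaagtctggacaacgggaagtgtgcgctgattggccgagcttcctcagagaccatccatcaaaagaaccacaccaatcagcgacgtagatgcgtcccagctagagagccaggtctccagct
Sesn1 (chr10:41887189-41887488, plus strand): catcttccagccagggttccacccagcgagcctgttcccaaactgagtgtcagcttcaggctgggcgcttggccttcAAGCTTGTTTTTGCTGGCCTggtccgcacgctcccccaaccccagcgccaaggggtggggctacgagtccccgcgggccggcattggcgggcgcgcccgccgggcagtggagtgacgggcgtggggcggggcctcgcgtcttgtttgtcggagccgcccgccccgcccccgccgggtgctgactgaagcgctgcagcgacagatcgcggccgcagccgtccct
Aen (chr7:78895808-78896107, plus strand): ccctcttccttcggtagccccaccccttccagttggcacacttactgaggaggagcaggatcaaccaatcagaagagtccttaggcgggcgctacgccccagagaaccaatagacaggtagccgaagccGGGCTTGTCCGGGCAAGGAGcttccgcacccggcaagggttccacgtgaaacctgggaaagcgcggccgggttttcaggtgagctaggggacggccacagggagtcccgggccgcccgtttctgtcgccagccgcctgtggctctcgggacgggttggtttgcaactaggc

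The Ccng1 match has 1 mismatch and the other 3 matches have 3 mismatches each. Relative to the transcript start, the matches begin at -195 in Ccng1, -75 in Trp53, -173 in Sesn1 and -121 in Aen. The Sesn1 and Aen windows belong to 1 of 2 listed starts each. The same Aen match also lies in the window of the other Aen start, where it begins at 10, after that start. The other Sesn1 window held no match. The windows of Phlda3 and Mdm4 held neither match.

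Total counts per library ran from 4995738 to 8691708, of which ribosomal RNA gene models took 50.9% to 74.8%, so that 1259982 to 3358874 counts were left for all other genes. AG120 day 14 replicate 1 had the fewest. Over all 14 libraries the members had from 221 counts (Zmat3) to 4139 counts (Mdm4), and the counting error of Zmat3, Phlda3 (261) and Trp53inp1 (393) is large. Levels below are in CPM, a gene's share of the library's counts after TMM scaling of the library sizes. Kit, which encodes the sorted marker cKit, was at 18.9, 50.2, 52.0 and 19.2 CPM in relapse replicates 1 to 4. It was at 11.6 CPM in both AG120 day 14 libraries and at 23.6 to 33.1 CPM after 5 days of AG120, while the vehicle libraries had 35.0 and 36.8 CPM at day 14 and 33.5 to 37.8 CPM at day 5. Itgam, which encodes CD11b, was detected in every library, at 13.9 to 53.5 CPM in relapse. It had 5.97 and 8.01 CPM after 14 days and 2.56 to 3.81 CPM after 5 days of AG120, while the vehicle libraries had 14.5 and 18.0 CPM at day 14 and 10.6 to 15.5 CPM at day 5.

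**Figure D1:**
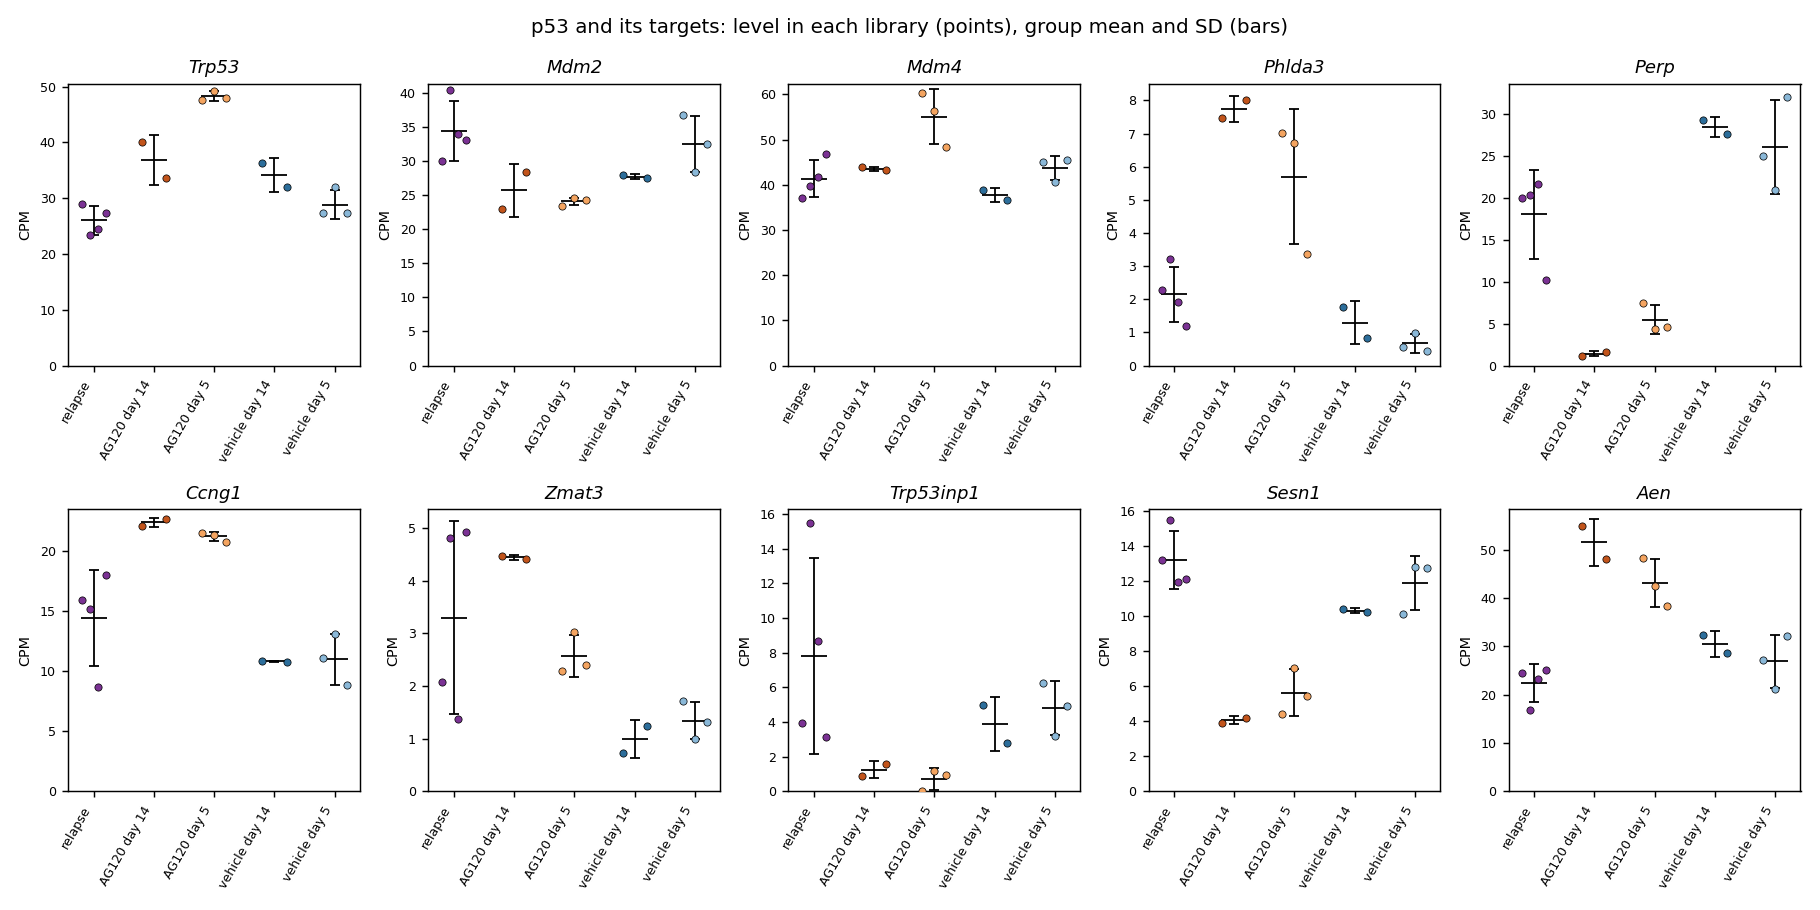
Level (CPM, linear axis from 0, a scale of its own in each panel) of the 10 genes in each of the 14 libraries; each point is 1 library, and bars give the group mean and SD. Perp is lowest in the 5 AG120 libraries, at 1.19 to 7.47 CPM, and Trp53inp1 varies widely in relapse, at 3.12 to 15.5 CPM.

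At day 5 the comparison asked which of these genes differed between AG120 and vehicle. Trp53 itself rose, as did the inhibitor gene Mdm4 and the targets Phlda3, Ccng1 and Aen, while Mdm2, Perp, Trp53inp1 and Sesn1 fell. The targets moved in both directions, with Phlda3 8.25-fold higher and Trp53inp1 6.69-fold lower. In all, 9 of the 10 genes passed edgeR's quasi-likelihood test (adjusted p under 0.05 over all genes tested), 5 higher and 4 lower, where 39.4% of all genes tested passed, 20.1% higher and 19.3% lower. Their median log2 fold change was 0.51, against -0.00087 over all genes. Leaving out any 1 of these 6 libraries left 7 to 8 members called, against 9 in the full fit. Over all genes the calls then numbered 3716 to 3873, against 4730. With library sizes left unscaled, 17.2% of the calls over all genes were higher, against 51.0% with TMM, and 5 of the 10 members passed, 1 higher and 4 lower. Those sizes include the ribosomal RNA models, which took 62.5% to 65.3% of counts in AG120 day 5, against 50.9% to 59.8% in vehicle day 5. With TMM and without these models 46.8% of the calls were higher. The part of the ribosomal RNA in the unscaled result was not tested. Fewer cells of a type and less RNA per cell cannot be told apart in such bulk samples.

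Trp53 (chr11:69580359-69591873, plus strand) had 47.5, 49.2 and 47.9 CPM after 5 days of AG120, against 27.3, 31.9 and 27.3 CPM in vehicle. Every AG120 library lay above every vehicle library, and the AG120 libraries were nearly alike. Trp53 rose by 0.74 ± 0.13 on the log2 scale (SE, edgeR adjusted p = 0.000202). With library sizes left unscaled it was 0.37 and did not pass (adjusted p = 0.132; 1.07e-07 to 0.132 over all alternatives), a scaling that also lowered the median of all genes by 0.38.

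Mdm2 (chr10:117688875-117710758, minus strand), which encodes the ligase that targets p53, had 23.5, 24.5 and 24.3 CPM after AG120, against 36.7, 28.4 and 32.4 CPM in vehicle. The groups did not overlap, but vehicle replicate 2 lay close to the AG120 libraries. It fell by 0.43 ± 0.14 on the log2 scale (SE, adjusted p = 0.0212), and the call was lost without AG120 replicate 1 or 3 or vehicle replicate 1 or 3 (adjusted p = 0.0659, 0.0554, 0.103 and 0.0507 in that order; 0.000789 to 0.103 over all alternatives). Mdm4 (chr1:132959484-133030561, minus strand), whose product binds p53 and masks it, had 60.3, 56.5 and 48.4 CPM after AG120, against 45.1, 40.7 and 45.4 CPM in vehicle. The lowest AG120 library was close to the highest vehicle library. Its log2 fold change of 0.33 ± 0.12 (SE, adjusted p = 0.0394) passed in 4 of 14 alternatives and turned to -0.047 with unscaled library sizes. The call was lost without any 1 of AG120 replicates 1 and 2 and vehicle replicates 1, 2 and 3 (adjusted p = 0.0677 to 0.156), and the adjusted p ran from 0.00625 to 0.878 over all alternatives. A gene model on the opposite strand overlaps Mdm4, though no other gene's exon lies near its 3′ end.

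Among the targets that rose, Phlda3 (chr1:135766119-135769136, plus strand), whose product keeps the kinase AKT from the membrane, had 7.01, 6.72 and 3.35 CPM after AG120, against 0.570, 0.995 and 0.440 CPM in vehicle. The lowest AG120 library stood well above the highest vehicle library, at 21 counts against 9. Its log2 fold change was 3.04 ± 0.44 (SE, adjusted p = 4.36e-05). Ccng1 (chr11:40748552-40755311, minus strand) encodes cyclin G1, a partner of Mdm2 and of protein phosphatase PP2A. It had 21.5, 21.3 and 20.8 CPM after AG120, against 11.1, 13.0 and 8.80 CPM in vehicle. The AG120 libraries were close to each other and well above vehicle. Aen (chr7:78895854-78911209, plus strand), a nuclease that promotes apoptosis, had 48.3, 42.5 and 38.3 CPM after AG120, against 27.2, 21.2 and 32.2 CPM in vehicle. Here too the groups did not overlap. The log2 fold changes were 0.95 ± 0.21 for Ccng1 and 0.68 ± 0.17 for Aen (SE, adjusted p = 0.0018 and 0.00437), and with unscaled library sizes neither passed (adjusted p = 0.0568 for Ccng1 and 0.306 for Aen, the highest of their alternatives; the lowest were 1.02e-06 and 0.000111).

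Among the targets that fell, Perp (chr10:18845020-18857073, plus strand), a membrane protein of desmosomes and an effector of apoptosis, had 7.47, 4.37 and 4.63 CPM after AG120, against 25.1, 21.0 and 32.1 CPM in vehicle. The highest AG120 library stood far below the lowest vehicle library. Perp fell by 2.24 ± 0.28 on the log2 scale (SE, adjusted p = 1.45e-05). Sesn1 (chr10:41809935-41908424, plus strand), a stress protein that restrains the growth kinase complex mTORC1, had 4.42, 7.06 and 5.43 CPM after AG120, against 10.1, 12.8 and 12.8 CPM in vehicle. The groups did not overlap. Sesn1 fell by 1.08 ± 0.19 (SE, adjusted p = 0.00033). Its locus contains another gene model on the same strand, with no exon near the 3′ end of Sesn1.

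Trp53inp1 (chr4:11156431-11174379, plus strand), a stress protein of nuclear bodies that acts with p53 in cell death, had 0, 1.18 and 0.958 CPM after AG120, against 6.26, 3.21 and 4.95 CPM in vehicle. AG120 replicate 1 had no count, which allows up to 0.457 CPM (3 counts, counting error only), and the other AG120 libraries had 7 and 6 counts. Its log2 fold change was -2.74 ± 0.79 (SE, adjusted p = 0.0152), -2.14 without AG120 replicate 1 (adjusted p = 0.0455) and not called by limma-voom (adjusted p = 0.064; 8.37e-05 to 0.064 over all alternatives). Zmat3 (chr3:32334792-32366014, minus strand), a zinc finger protein that binds RNA, had 2.29, 3.02 and 2.40 CPM after AG120, against 1.71, 0.995 and 1.32 CPM in vehicle. The groups did not overlap, but its log2 fold change of 0.94 ± 0.46 did not pass (SE, adjusted p = 0.111). It passed when the fit held only the day 5 groups (adjusted p = 0.0241; 0.0241 to 0.364 over all alternatives).

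Other cell types' genes differed between the same libraries. Of 18 erythroid marker genes in the table, 10 rose at day 5 and none fell, and their summed level was 686 to 820 CPM in AG120 day 5 libraries, against 168 to 232 CPM in vehicle day 5 libraries. Of 9 neutrophil genes 3 fell, and their sum was 123 to 209 CPM after AG120, against 585 to 776 CPM in vehicle. No erythroid or neutrophil marker was at 0 in a whole group. Monocyte genes summed to 12.5 to 13.9 CPM after AG120, against 32.5 to 37.2 CPM in vehicle, and 2 of the 4 tested fell. The shares called were 55.6% of the erythroid, 33.3% of the neutrophil and 50.0% of the monocyte genes, where 39.4% of all genes passed. T and NK cell genes summed to 10.1 to 12.2 CPM after AG120, with Cd3d, Klrb1c, Cd8a and Cd4 at 0, against 36.3 to 45.3 CPM in vehicle, with Cd3e, Cd3g, Trac, Klrb1c and Cd4 at 0. Nearly all of that sum was Nkg7, a granule protein gene and the only 1 of the 8 that could be tested, at 9.91 to 12.0 CPM after AG120 and 36.0 to 45.0 CPM in vehicle. Itgam fell by 2.02 ± 0.53 on the log2 scale (SE, adjusted p = 0.0103). B cell genes stayed at or under 2.86 CPM and stromal genes at or under 0.997 CPM in all these libraries. Ribosomal RNA models took 62.5% to 65.3% of counts in AG120 day 5, against 50.9% to 59.8% in vehicle day 5. The part of these differences in the changes of the p53 genes was not tested.

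The other genes of the pathway came from 3 lists. Sesn2 and Trp73 stand both among the other targets and among the relatives. Of 43 other p53 targets 37 could be tested, of which 6 rose and 6 fell at day 5 and 25 did not pass (32.4% called, against 39.4% of all genes), with a median of -0.14. Those with the largest changes were Polh, a translesion DNA polymerase, at 1.28 ± 0.29, Psrc1, a spindle protein, at 0.97 ± 0.31, and Gadd45a, a growth arrest protein, at 0.95 ± 0.34 on the log2 scale. On the other side stood the extracellular sulfatase Sulf2 at -1.85 ± 0.29, the secreted factor Gdf15 at -1.65 ± 0.35 and Cdkn1a at -1.63 ± 0.23 (SE, adjusted p = 0.0380 or less for all 6). The Psrc1 call was lost without AG120 replicate 1 or 2 or vehicle replicate 3 (adjusted p = 0.0846, 0.0546 and 0.096), and Gadd45a lost it without any 1 of AG120 replicates 1, 2 and 3 and vehicle replicates 2 and 3 (adjusted p = 0.0533 to 0.152). Over all alternatives their adjusted p ran from 0.0113 to 0.211 and from 0.00014 to 0.215.

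Of 28 regulators of p53, 27 could be tested, and 6 rose and 5 fell (40.7% called, against 39.4% of all genes). The nucleolar proteins Gnl3 and Npm1 rose by 1.22 ± 0.27 and 1.16 ± 0.19, and Usp10, which removes ubiquitin from p53, by 0.85 ± 0.15. Ppp1r13b, a p53-binding protein of the ASPP family, was at -1.95 ± 0.27, its relative Trp53bp2 at -0.74 ± 0.23 and the acetyltransferase gene Crebbp at -0.69 ± 0.17 (SE, adjusted p = 0.0187 or less for all 6). The Trp53bp2 call was lost without AG120 replicate 2 or 3 or vehicle replicate 2 (adjusted p = 0.055, 0.0983 and 0.0947, with 0.0021 to 0.0983 over all alternatives). That of Usp10 was lost with unscaled library sizes (adjusted p = 0.0862). Among 15 relatives of the members by sequence family, 10 could be tested. Ccng2, the relative of Ccng1, fell by 2.61 ± 0.41 where Ccng1 rose, and Sesn3, the relative of Sesn1, fell by 2.42 ± 0.32 as Sesn1 did (SE, adjusted p = 0.00016 and 2.04e-05). Isg20l2, an exonuclease related to Aen, rose by 0.86 ± 0.24 (SE, adjusted p = 0.0106), a call lost without AG120 replicate 2 (adjusted p = 0.0742; 4.86e-05 to 0.168 over all alternatives).

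**Figure D2:**
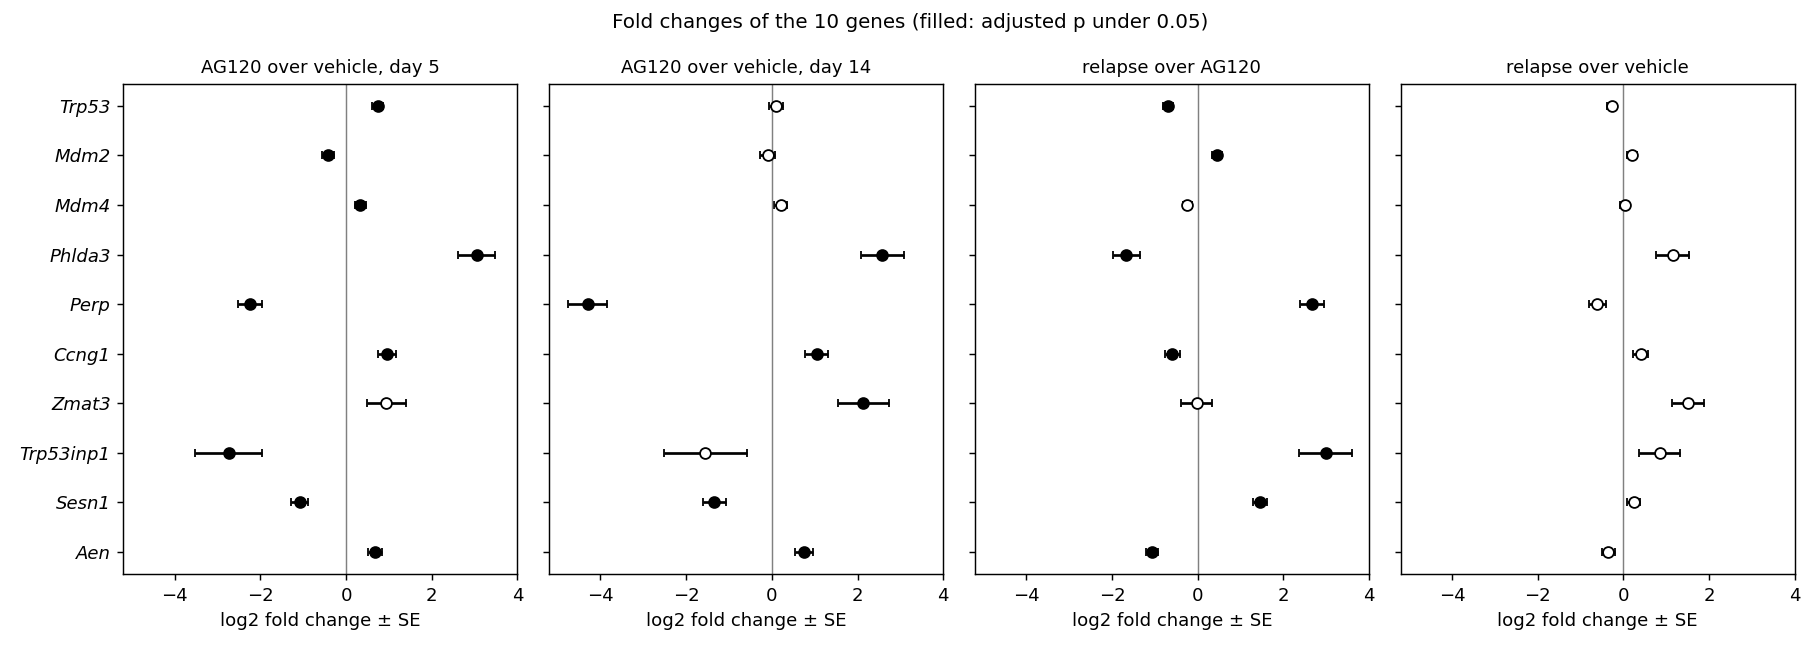
Log2 fold change with its SE for each of the 10 genes in 4 comparisons; filled points passed an adjusted p of 0.05 in edgeR's test. Perp has the lowest value at day 14 (-4.29), and no gene passes in relapse against vehicle.

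After 14 days the question was whether the same genes still differed from vehicle. Perp, Sesn1, Phlda3, Ccng1 and Aen differed in the same direction as at day 5, Zmat3 was higher as well, and Trp53, Mdm2 and Mdm4 did not pass. In all, 6 of 10 genes passed, 4 higher and 2 lower, where 34.7% of all genes passed, 16.8% higher and 17.9% lower. The median was 0.15, against -0.0062 over all genes. The day 14 libraries are other mice than those of day 5, with 2 in each group.

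Trp53 had 40.0 and 33.6 CPM after 14 days of AG120, against 36.3 and 32.1 CPM in vehicle. The groups overlapped, and the log2 fold change was 0.10 ± 0.16 (SE, adjusted p = 0.653). Mdm2 had 23.0 and 28.4 CPM after AG120, against 28.0 and 27.5 CPM in vehicle, and Mdm4 had 43.9 and 43.2 CPM after AG120, against 38.8 and 36.6 CPM in vehicle. Mdm2 overlapped between the groups while Mdm4 did not, and neither passed (-0.10 ± 0.18, adjusted p = 0.691, and 0.21 ± 0.15, adjusted p = 0.321). The sign of each of the 3 changed in at least 1 alternative: Trp53 was at -0.29 and Mdm4 at -0.18 with unscaled library sizes, where the median of all genes fell by 0.39, and without AG120 replicate 1 Trp53 was at -0.022 and Mdm2 at 0.037.

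Perp had 1.19 and 1.60 CPM after 14 days of AG120, against 29.3 and 27.6 CPM in vehicle. These are 4 and 8 counts against 200 in each vehicle library, the widest gap of any of the 10 genes. Its log2 fold change was -4.29 ± 0.45 (SE, adjusted p = 3.18e-06), or 19.6-fold lower, and every alternative called it. Sesn1 had 3.88 and 4.20 CPM after AG120, against 10.4 and 10.2 CPM in vehicle. It fell by 1.34 ± 0.27 (SE, adjusted p = 0.00104), and the replicates of each group were close together. Trp53inp1 had 0.895 and 1.60 CPM after AG120, against 4.98 and 2.76 CPM in vehicle. The groups did not overlap, but the log2 fold change of -1.55 ± 0.98 did not pass (SE, adjusted p = 0.242). It passed when the fit held only the day 14 groups (adjusted p = 0.0144; 0.0144 to 0.55 over all alternatives).

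Phlda3 had 7.46 and 8.01 CPM after 14 days of AG120, against 1.76 and 0.83 CPM in vehicle. Both AG120 libraries lay far above vehicle, and the log2 fold change was 2.58 ± 0.50 (SE, adjusted p = 0.000815), with 3.19 without vehicle replicate 1 (adjusted p = 0.00326) as the highest value. Zmat3 had 4.48 and 4.40 CPM after AG120, against 0.733 and 1.24 CPM in vehicle. That is 15 and 22 counts against 5 and 9, and the log2 fold change of 2.14 ± 0.59 (SE, adjusted p = 0.00961) lost its call without vehicle replicate 1 (adjusted p = 0.0827; 0.000878 to 0.0827 over all alternatives). Ccng1 had 22.1 and 22.6 CPM after AG120, against 10.8 CPM in both vehicle libraries, nearly the levels seen at day 5. Aen had 54.9 and 48.0 CPM after AG120, against 32.4 and 28.6 CPM in vehicle. The log2 fold changes were 1.05 ± 0.27 for Ccng1 and 0.75 ± 0.21 for Aen (SE, adjusted p = 0.00572 and 0.0105). Both calls were lost with unscaled library sizes (adjusted p = 0.0955 and 0.332), and that of Aen also without AG120 replicate 1 or vehicle replicate 2 (adjusted p = 0.0736 and 0.0907). Over all alternatives the adjusted p ran from 0.000305 to 0.0955 for Ccng1 and from 0.00108 to 0.332 for Aen.

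Erythroid genes were further apart at day 14, with 14 of 18 higher and a sum of 2051 to 2285 CPM in AG120 day 14 libraries, against 191 to 240 CPM in vehicle day 14 libraries. Neutrophil genes summed to 1301 to 1696 CPM after AG120, against 981 to 1195 CPM in vehicle, with 1 of 9 lower. Monocyte genes summed to 24.5 to 32.2 CPM after AG120, with Adgre1 at 0, against 36.2 to 47.8 CPM in vehicle, and 1 of the 4 tested fell. The shares called were 77.8% of the erythroid, 11.1% of the neutrophil and 25.0% of the monocyte genes, where 34.7% of all genes passed. T and NK cell genes summed to 3.88 to 4.40 CPM after AG120, with Cd3e, Cd3g, Trac and Cd8a at 0, against 40.2 to 41.9 CPM in vehicle, with Cd3e, Trac and Cd8a at 0. Nkg7 again made up nearly all of that sum, at 3.58 and 4.00 CPM after AG120 and 41.2 and 39.7 CPM in vehicle. Kit fell by 1.63 ± 0.49 on the log2 scale (SE, adjusted p = 0.0220). Ribosomal RNA models took 63.1% and 74.8% of counts in the AG120 libraries, against 55.8% and 68.1% in vehicle. The part of these differences in the changes of the p53 genes was not tested.

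Of the 37 other p53 targets tested, 3 rose, 7 fell and 27 did not pass at day 14 (27.0% called, against 34.7% of all genes). Their median was -0.39, against -0.0062 over all genes. Bax, the apoptosis effector, was at 1.10 ± 0.26, the repair endonuclease gene Ercc5 at 1.08 ± 0.31 and Triap1, a small inhibitor of the apoptosome, at 0.58 ± 0.17. Pmaip1, which encodes the BH3-only protein NOXA, was at -3.20 ± 0.57, Tigar, a phosphatase of sugar metabolism, at -2.62 ± 0.75 and Cdkn1a at -2.51 ± 0.34 (SE, adjusted p = 0.0136 or less for all 6). Leaving out 1 library ended the call of Bax (AG120 replicate 1, adjusted p = 0.0548), of Ercc5 (AG120 replicate 2, 0.0591, or vehicle replicate 2, 0.134), of Tigar (AG120 replicate 2, 0.117) and of Triap1 (AG120 replicate 2, 0.171, vehicle replicate 1, 0.0855, or vehicle replicate 2, 0.0623). Over all alternatives the adjusted p ran from 0.000173 to 0.0711 for Bax, from 0.00467 to 0.134 for Ercc5, from 0.00139 to 0.117 for Tigar and from 0.00724 to 0.605 for Triap1.

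Of the 27 regulators, 8 rose and 2 fell (37.0% called, against 34.7% of all genes). Wrap53, the neighbour of Trp53 on the opposite strand, was at 1.21 ± 0.19, the kinase gene Hipk2 at 1.21 ± 0.35 and Usp7, which removes ubiquitin from p53 and Mdm2, at 0.98 ± 0.14. Ppp1r13b was at -1.49 ± 0.35 and the DNA damage adaptor gene Trp53bp1 at -0.91 ± 0.17 (SE, adjusted p = 0.0129 or less for all 5). The Hipk2 call was lost without AG120 replicate 1 or vehicle replicate 1 (adjusted p = 0.0695 and 0.0979, with 0.000428 to 0.129 over all alternatives). That of Usp7 was lost with unscaled library sizes (adjusted p = 0.0523). Among the relatives, Ccng2 fell by 4.46 ± 0.72 and Sesn3 by 2.25 ± 0.44 (SE, adjusted p = 0.000214 and 0.000883). Isg20, a relative of Aen, was at 1.87 ± 0.66 (adjusted p = 0.0378), and leaving out any 1 of the 4 day 14 libraries ended its call (adjusted p = 0.0699 to 0.22; 0.000587 to 0.22 over all alternatives).

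**Figure D3:**
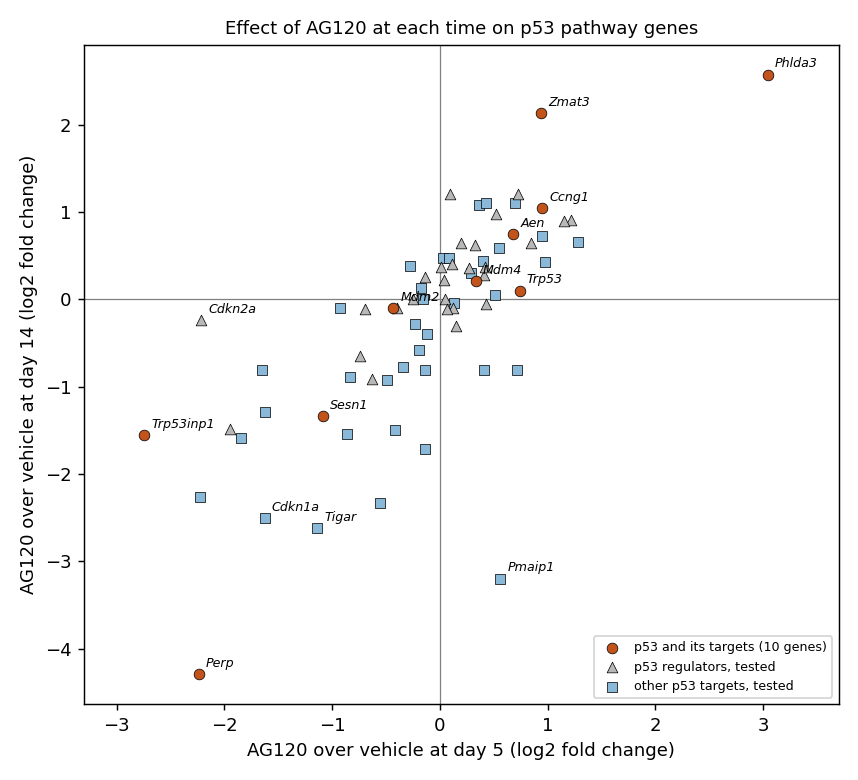
Log2 fold change of AG120 over vehicle at day 5 (horizontal axis) and day 14 (vertical axis) for the 10 genes (circles), the tested p53 regulators (triangles) and the other tested p53 targets (squares); the times share no library. Phlda3 and Perp lie at opposite corners, and Pmaip1 stands alone, at 0.56 on the day 5 axis and -3.20 on the day 14 axis.

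Whether the AG120 effect differed between the times was tested directly, as the day 14 effect minus the day 5 effect. None of the 10 genes passed in edgeR's test, where 0.934% of all genes did. At an unadjusted p under 0.05 there were 2 of 10, Perp and Trp53, where 12.4% of all genes did so. Perp was at -2.06 ± 0.58 log2 units (SE, adjusted p = 0.129), and it was called by DESeq2 (adjusted p = 0.0462), without a filter on low counts (0.000124) and with the 4 groups alone (0.0024), with 0.000124 to 0.443 over all alternatives. Trp53 was at -0.64 ± 0.20 (SE, adjusted p = 0.178), so that its rise at day 5 and its overlap at day 14 were not shown to differ; it passed with the 4 groups alone (adjusted p = 0.0271; 0.0271 to 0.58 over all alternatives). The other 8 had values from -0.47 (Phlda3) to 1.20 (Zmat3), all with an adjusted p of 0.573 or more. DESeq2 called 1 member in this comparison and limma-voom none.

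Pmaip1 was the only one of the other p53 targets, regulators and relatives to pass. It had 0.895 and 0.400 CPM in AG120 day 14, against 6.30 and 5.11 CPM in vehicle day 14, and 6.40, 4.87 and 4.31 CPM in AG120 day 5, against 3.13, 4.09 and 3.30 CPM in vehicle day 5. It was lower than vehicle in both day 14 libraries and higher than vehicle in the 3 day 5 libraries. The difference of effects was -3.76 ± 0.65 log2 units (SE, adjusted p = 0.0122). The call was lost without AG120 day 14 replicate 1 or 2 or vehicle day 14 replicate 1 (adjusted p = 0.057, 0.111 and 0.0685) and with limma-voom (adjusted p = 0.113). Over all alternatives the adjusted p ran from 1.5e-06 to 0.113, and the AG120 day 14 libraries held only 3 and 2 counts.

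Vehicle day 14 and vehicle day 5 were compared to see how the groups without AG120 differed between the times. No member and no other gene passed (0% of all genes by edgeR, with 574 genes at an unadjusted p under 0.05, and none by DESeq2 or limma-voom). Without a filter on low counts 33 genes passed, and with only these groups fitted 236 did, none of them a member. The groups are different mice (n = 2 and n = 3), so a lack of calls does not show that time had no effect. Trp53, Mdm2 and Mdm4 had log2 fold changes of 0.24 ± 0.14, -0.23 ± 0.15 and -0.21 ± 0.14 (SE, adjusted p = 1.0 each). The genes of highest expression in the other lists, Ier5, Ei24, Npm1, Rpl23, Zmat2 and Isg20l2, were at -0.54 ± 0.79, -0.17 ± 0.16, 0.12 ± 0.21, -0.091 ± 0.17, 0.058 ± 0.15 and 0.52 ± 0.27 in that order (SE, adjusted p = 1.0 each).

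The next question was whether the p53 genes of relapsed disease differed from vehicle and from AG120. Against the mean of both vehicle groups none of the 10 passed in edgeR's test, where 0.183% of all genes did, 0.1% higher and 0.0834% lower, and their median was 0.22, against 0.02 over all genes. At an unadjusted p under 0.05 there were 6 of 10, where 11.6% of all genes did so. DESeq2 called 1 member and limma-voom none. Against the mean of both AG120 groups 8 of 10 passed, 4 higher (Mdm2, Perp, Trp53inp1 and Sesn1) and 4 lower (Trp53, Phlda3, Ccng1 and Aen), where 54% of all genes passed, 27.9% higher and 26.1% lower. These comparisons share the relapse libraries with each other and their vehicle or AG120 libraries with the comparisons above, so their directions are not independent of those.

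Trp53 had 28.9, 23.3, 24.5 and 27.3 CPM in relapse replicates 1 to 4. All 4 lay below all 5 AG120 libraries (33.6 to 49.2 CPM), and they overlapped with vehicle (27.3 to 36.3 CPM). The log2 fold change was -0.69 ± 0.11 against AG120 (SE, adjusted p = 4.63e-05) and -0.27 ± 0.11 against vehicle (SE, adjusted p = 0.333). By group mean relapse was the lowest of the 5 groups, at 26.0 ± 2.55 CPM (SD, n = 4). The others, from high to low, were AG120 day 5 at 48.2 ± 0.887 CPM (n = 3), AG120 day 14 at 36.8 ± 4.51 (n = 2), vehicle day 14 at 34.2 ± 3.02 (n = 2) and vehicle day 5 at 28.9 ± 2.68 (SD, n = 3). AG120 day 5 stood above the next group by more than the spread, while relapse overlapped with vehicle day 5, and AG120 day 14 with vehicle day 14.

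Mdm2 had 30.0, 40.4, 34.0 and 33.1 CPM in relapse, above all 5 AG120 libraries (23.0 to 28.4 CPM) and overlapping with vehicle (27.5 to 36.7 CPM). Its log2 fold change was 0.46 ± 0.12 against AG120 (SE, adjusted p = 0.00323) and 0.20 ± 0.11 against vehicle (SE, adjusted p = 0.53). Mdm4 had 37.0, 39.7, 41.8 and 46.7 CPM in relapse, overlapping with AG120 (43.2 to 60.3 CPM) and with vehicle (36.6 to 45.4 CPM). It was at -0.24 ± 0.10 against AG120 (SE, adjusted p = 0.0592) and 0.028 ± 0.10 against vehicle (SE, adjusted p = 0.946). Against AG120 it passed without AG120 day 5 replicate 3 or relapse replicate 4 (adjusted p = 0.0361 and 0.0253; 0.0253 to 0.89 over all alternatives).

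Perp had 20.0, 20.3, 21.7 and 10.2 CPM in relapse. Even the lowest, replicate 4, was above every AG120 library (1.19 to 7.47 CPM), and 3 of the 4 were below every vehicle library (21.0 to 32.1 CPM). The log2 fold change was 2.66 ± 0.28 against AG120 (SE, adjusted p = 1.2e-06) and -0.60 ± 0.20 against vehicle (SE, adjusted p = 0.254), which passed only without a filter on low counts (adjusted p = 0.00663; 0.00663 to 0.607 over all alternatives). From low to high, the group means of Perp were 1.40 ± 0.288 CPM in AG120 day 14 (n = 2), 5.49 ± 1.72 in AG120 day 5 (n = 3), 18.1 ± 5.30 in relapse (n = 4), 26.1 ± 5.63 in vehicle day 5 (n = 3) and 28.5 ± 1.17 in vehicle day 14 (SD, n = 2). Relapse overlapped with vehicle day 5, the vehicle groups overlapped, and both AG120 groups lay apart from the rest and from each other.

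Sesn1 had 13.2, 15.5, 12.0 and 12.1 CPM in relapse, above all 5 AG120 libraries (3.88 to 7.06 CPM), with 1.46 ± 0.17 against AG120 (SE, adjusted p = 2.34e-06) and 0.25 ± 0.15 against vehicle (SE, adjusted p = 0.55). Trp53inp1 had 3.97, 15.5, 8.67 and 3.12 CPM in relapse, where replicates 2 and 3 exceeded every vehicle library (2.76 to 6.26 CPM) and replicates 1 and 4 did not. It was at 2.99 ± 0.62 against AG120 (SE, adjusted p = 0.0012) and 0.85 ± 0.48 against vehicle (SE, adjusted p = 0.526). Kit, too, was at 50.2 and 52.0 CPM in replicates 2 and 3, against 18.9 and 19.2 CPM in replicates 1 and 4, and the relation was not tested. Of the 10 genes Trp53inp1 varied most among relapse libraries, with an SD of 1.01 in log2 CPM, and Trp53 and Mdm4 least, at 0.14 each, where the median of all genes was 0.32.

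Phlda3 had 2.27, 3.21, 1.93 and 1.20 CPM in relapse, below all 5 AG120 libraries (3.35 to 8.01 CPM) and reaching above vehicle (0.440 to 1.76 CPM) in 3 of 4. The log2 fold change was -1.66 ± 0.33 against AG120 (SE, adjusted p = 0.000408) and 1.15 ± 0.38 against vehicle (SE, adjusted p = 0.246). Aen had 24.6, 16.7, 23.3 and 25.2 CPM in relapse, below every AG120 library (38.3 to 54.9 CPM), with -1.06 ± 0.15 against AG120 (SE, adjusted p = 1.24e-05) and -0.35 ± 0.14 against vehicle (SE, adjusted p = 0.361). Ccng1 had 15.9, 15.1, 8.67 and 18.0 CPM in relapse, with replicate 3 at the level of vehicle (8.80 to 13.0 CPM) and the other 3 between vehicle and AG120 (20.8 to 22.6 CPM). It was at -0.60 ± 0.18 against AG120 (SE, adjusted p = 0.00875), a call lost with unscaled library sizes (adjusted p = 0.0937; 0.00265 to 0.0937 over all alternatives), and at 0.40 ± 0.18 against vehicle (SE, adjusted p = 0.398).

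Zmat3 had 2.08, 4.81, 1.38 and 4.91 CPM in relapse. Replicates 2 and 4 were above every AG120 library (2.29 to 4.48 CPM), and replicate 3 lay within vehicle (0.733 to 1.71 CPM). Against AG120 its log2 fold change was -0.025 ± 0.35 (SE, adjusted p = 0.96), with a sign that changed among the alternatives. Against vehicle it was 1.52 ± 0.38 (SE, adjusted p = 0.109), the lowest adjusted p of the 10 genes in that comparison, and it passed in DESeq2 (adjusted p = 0.0498), without a filter on low counts (0.00346) and without relapse replicate 3 (0.0161), with 0.00346 to 0.404 over all alternatives.

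Erythroid genes summed to 78.4 to 540 CPM in relapse, against 686 to 2285 CPM in AG120 and 168 to 240 CPM in vehicle, and 11 of 18 were lower in relapse than in AG120 while none passed against vehicle. Neutrophil genes summed to 260 to 1291 CPM in relapse, against 123 to 1696 CPM in AG120 and 585 to 1195 CPM in vehicle, and 2 of 9 were higher in relapse than in AG120. Monocyte genes summed to 35.5 to 98.6 CPM in relapse, against 12.5 to 32.2 CPM in AG120 and 32.5 to 47.8 CPM in vehicle, and 3 of the 4 tested were higher in relapse than in AG120. In that comparison 61.1% of the erythroid, 22.2% of the neutrophil and 75.0% of the monocyte genes were called, where 54% of all genes passed. The sort marker genes Kit and Itgam were also higher in relapse than in AG120, by 0.99 ± 0.31 and 2.64 ± 0.40 on the log2 scale (SE, adjusted p = 0.0188 and 0.000177), and Nkg7 by 2.36 ± 0.14 (SE, adjusted p = 8.72e-10). Their part in the values of the p53 genes was not tested.

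In the wider pathway, Cdkn2a, whose locus encodes the Mdm2 inhibitor ARF as well as the cell cycle inhibitor INK4a, was the only regulator of 27 to pass in relapse against vehicle. It had 11.7, 18.7, 1.65 and 21.3 CPM in relapse. The AG120 libraries had 0.600 and 0.895 CPM at day 14 and 0 to 0.168 CPM at day 5, and the vehicle libraries 0.553 and 1.17 CPM at day 14 and 0.330 to 0.997 CPM at day 5. All 4 relapse libraries were above all others, although replicate 3 only narrowly. The log2 fold change was 4.23 ± 0.65 against vehicle (SE, adjusted p = 0.0245) and 5.46 ± 0.81 against AG120 (SE, adjusted p = 0.000128). The call against vehicle was lost when any 1 of the 5 vehicle libraries was left out (adjusted p = 0.0512 to 0.242, with 4.44e-09 to 0.34 over all alternatives). The call against AG120 was lost with limma-voom (adjusted p = 0.0905). The transcripts of ARF and INK4a share their 3′ exons, so counts from the 3′ end cannot tell them apart.

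Of the 37 other p53 targets, 1 was higher and 1 lower in relapse than in vehicle (5.41% called, against 0.183% of all genes). Cdkn1a had 21.3, 23.2, 26.9 and 31.9 CPM in relapse. The AG120 libraries had 2.39 and 2.80 CPM at day 14 and 3.36 to 5.33 CPM at day 5, and the vehicle libraries 12.5 and 17.6 CPM at day 14 and 10.3 to 15.0 CPM at day 5. Relapse lay above every other library and AG120 below every other library. The log2 fold change was 0.88 ± 0.16 against vehicle (SE, adjusted p = 0.0330) and 2.94 ± 0.20 against AG120 (SE, adjusted p = 4.13e-09). Gdf15 was 1.41 ± 0.27 log2 units lower than in vehicle (SE, adjusted p = 0.0476). Leaving out any 1 of the 5 vehicle libraries or relapse replicate 4 ended the call of Cdkn1a against vehicle (adjusted p = 0.0615 to 0.193; 9.89e-06 to 0.34 over all alternatives). That of Gdf15 ended without vehicle day 5 replicate 2 or 3, either vehicle day 14 library or relapse replicate 1 or 4 (adjusted p = 0.0553 to 0.193; 0.00158 to 0.193 over all alternatives).

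Against AG120, 13 of the 37 other targets were higher and 6 lower, 6 of the 27 regulators higher and 9 lower, and 3 of the 10 relatives higher and 2 lower. The shares called were 51.4%, 55.6% and 50.0%, near the 54% of all genes. Sesn2, which was higher, is counted both as a target and as a relative. Pmaip1 was at 1.85 ± 0.33, Ppp1r13b at 1.90 ± 0.23, Crebbp at 0.78 ± 0.14, Ccng2 at 3.41 ± 0.42 and Sesn3 at 2.75 ± 0.28. Gadd45a was at -1.22 ± 0.31, Gnl3 at -1.18 ± 0.23, Usp10 at -0.97 ± 0.13 and Wrap53 at -0.96 ± 0.13 (SE, adjusted p = 0.00408 or less for all 9). Dram1, an autophagy gene, was at 2.41 ± 0.76, Sesn2 at 0.76 ± 0.24, Polh at -0.76 ± 0.25, Ercc5 at -0.69 ± 0.20, Isg20 at -1.44 ± 0.47 and Isg20l2 at -0.49 ± 0.20 (SE, adjusted p = 0.0494 or less for all 6). Leaving out 1 library ended the call of Dram1 (AG120 day 14 replicate 2, adjusted p = 0.0732, or relapse replicate 1, 0.0506) and of Polh (relapse replicate 2, 0.0632, or 3, 0.0503). That of Isg20l2 ended without any 1 of AG120 day 5 replicates 2 and 3, both AG120 day 14 libraries and relapse replicates 1, 3 and 4 (adjusted p = 0.0695 to 0.131). Over all alternatives the adjusted p ran from 1.87e-05 to 0.118 for Dram1, from 0.0127 to 0.258 for Polh and from 0.004 to 0.323 for Isg20l2. The calls of Gadd45a and Sesn2 were lost against AG120 day 14 alone (adjusted p = 0.0671 and 0.0924). That of Ercc5 was lost with unscaled library sizes (adjusted p = 0.11) and with a replicate block (0.063).

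**Figure D4:**
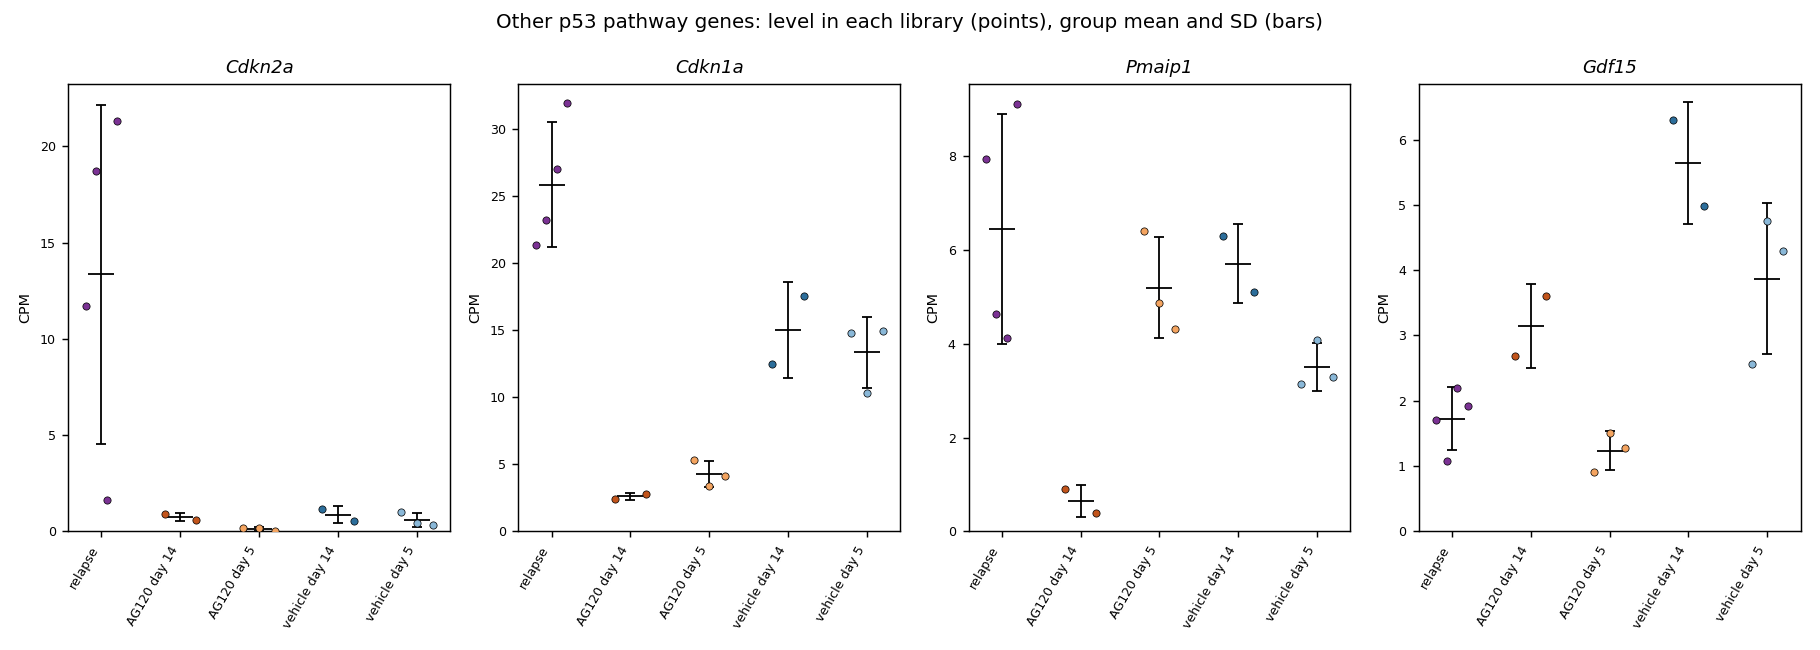
Level (CPM, linear axis from 0, a scale of its own in each panel) of Cdkn2a, Cdkn1a, Pmaip1 and Gdf15 in each of the 14 libraries; each point is 1 library, and bars give the group mean and SD. Relapse is highest for Cdkn2a and Cdkn1a, with 1 relapse library at 1.65 CPM of Cdkn2a, and AG120 day 14 is lowest for Pmaip1.

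The genes with the most similar profile over the 14 libraries were found as those with the smallest root mean square difference of centred log2 CPM, among 6590 genes with a mean log2 CPM of at least 3. For Trp53 they were Tmem70 (0.126) and Snx3 (0.130), for Mdm2 Sc5d (0.0966) and Rprd2 (0.105), and for Mdm4 Otud4 (0.0973) and Abcd3 (0.108). For Phlda3 they were Tfrc (0.542) and March8 (0.580), for Perp Rab44 (0.380) and Rnase6 (0.387), for Sesn1 Cyfip2 (0.171) and Tnrc18 (0.183), and for Aen Ncbp1 (0.161) and Prmt5 (0.166). Ccng1 was nearest to Iars2 (0.185) and Espl1 (0.197), Zmat3 to Dync2h1 (0.489) and Clic4 (0.502), and Trp53inp1 to Tuba1a (0.640) and Gsn (0.641). No member was among these neighbours of another, although Zmat3, Phlda3 and Trp53inp1 had a mean under the limit and could not be. Only the nearest genes named here were kept out of 6590, so this says little about whether the members vary together. The summed level of the 10 genes was 178 to 195 CPM in relapse. With AG120 it was 196 to 202 CPM at day 14 and 196 to 222 CPM at day 5, and with vehicle 178 to 194 CPM at day 14 and 174 to 198 CPM at day 5. The sum rested mostly on Mdm4, Trp53, Aen and Mdm2, the members of highest mean level, and says little about the others.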

How the data were processed

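Gene expression was measured with QuantSeq 3′ mRNA sequencing in 14 libraries. The deposited values are raw counts per gene in a single table, whose columns were matched to libraries by name. The submitters' processing notes name HISAT2 2.1.0 and the build mm10, the read tools cutadapt 1.14 and bcl2fastq 2.17.1.14, featureCounts of Subread 1.6.3 and, in R 3.6.2, edgeR 3.28.1 with limma 3.42.2. The sources used here do not state the strand setting of the counting, the handling of multi-mapping reads or any use of molecular identifiers. Gene symbols and coordinates came from the GENCODE annotation of GRCm38, the assembly of mm10, and promoter windows from RefSeq.

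Low counts were removed by filterByExpr with the group as its factor and a minimum count of 10, and the remaining genes were fitted, after TMM scaling, with edgeR 4.0.16 (quasi-likelihood, robust, 1 coefficient per group, 9 residual degrees of freedom) in R 4.3.3 over all 14 libraries. Relapse was set against the mean of both vehicle groups and of both AG120 groups. All adjusted p-values are Benjamini-Hochberg over all 11994 genes that were tested. The threshold was 0.05, and errors of log2 fold changes are standard errors. These were derived from the test, as the size of the log2 fold change divided by the square root of its F statistic. They are therefore not a measure independent of the p-value. Log2 CPM used a prior count of 2. No pair of replicates agreed within sampling noise.

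Alternatives were DESeq2 1.42.0, limma-voom (limma 3.58.1), RLE scaling, unscaled library sizes, no filter, no ribosomal RNA models, only the groups compared, a replicate block, each library left out in turn, and day 14 alone as the comparator of relapse. They were fixed for the members and added for other named genes after the data were seen. The unscaled library sizes include the counts of the ribosomal RNA models. The fit was tested on simulated data with the same mean profile in every group, the same dispersion for every gene and few genes changed. Of 100 genes changed 2-fold it called 63% at day 5, 37% at day 14 and 19% for the difference between the days. It called 75% for relapse against vehicle and 80% for relapse against AG120. The data do not meet these settings, so the shares do not give the power reached there.

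The members, the lists of other p53 targets, regulators and relatives, and the marker lists were chosen with earlier results of these data known. Named were all members, and from each list up to 3 genes that passed in each direction, taken by size of change, or the 2 of highest expression where none did.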

Additional observations from a re-analysis of the deposited data

Results flagged for a closer look

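In 4 of the 42 genes checked for it, 1 relapse library stood apart from the other 3, by a gap to its nearest neighbour that exceeded Dixon's limit for 4 samples as a share of the group's range in log2 CPM, which chance passes in about 1 in 20 groups. Perp was lowest in relapse replicate 4, at 10.2 CPM against 20.0 to 21.7 CPM in the others (gap 0.891 of the range). Hipk2 was also lowest in replicate 4, at 4.43 CPM against 10.0 to 11.6 CPM (0.846). Ier5, an immediate early gene, was highest in replicate 3, at 113 CPM against 36.0 to 39.3 CPM (0.923). Wrap53 was lowest in replicate 2, at 10.3 CPM against 11.5 to 11.6 CPM (0.924).

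Among the p53 genes and the other targets, regulators and relatives, only Pmaip1 passed the test of a different AG120 effect between the times. In all, 112 of 11994 genes passed it. Pmaip1 was at -3.76 log2 units for day 14 minus day 5 (edgeR adjusted p = 0.0122). It was lower than vehicle in 2 of 2 AG120 libraries at day 14 and higher in 3 of 3 at day 5. Leaving out AG120 day 14 replicate 1 or 2 or vehicle day 14 replicate 1 ended the call (adjusted p = 0.057, 0.111 and 0.0685). The call was also lost with limma-voom (adjusted p = 0.113).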

How the results depend on the processing

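Of the log2 fold changes of members and other named genes under other settings, 935 of 1017 kept their direction and side of the threshold, 54 lost and 11 gained a call and 17 changed sign; with 1 library left out these were 763 of 854, 68, 3 and 20. Where a cause is not plain from the setting itself, the cause was not tested. With unscaled library sizes, which moved the median of all genes by -0.38 at day 5, -0.39 at day 14 and 0.22 in relapse against AG120, 17.2% of the calls at day 5 were higher (51.0% with TMM), 17.7% at day 14 (48.3%) and 69.4% in relapse against AG120 (51.7%). The members called at day 5 were then 5, 1 higher and 4 lower, and the signs changed of Mdm4 (-0.047 at day 5, -0.18 at day 14, -0.15 in relapse against vehicle), Trp53 (-0.29 at day 14), Zmat3 (0.17 in relapse against AG120), and, between the vehicle groups, Perp (-0.10), Aen (-0.046), Npm1 (-0.10) and Zmat2 (-0.15). Zmat3 in relapse against AG120 was also positive with RLE scaling (0.00099), no filter (0.037), no ribosomal RNA models (0.017) and only those groups (0.018). In relapse against vehicle, Zmat2 was positive with DESeq2 (0.0016) and RLE (0.0013), and Isg20l2 was at -0.016 against day 14 alone. Genes called for a difference in AG120 effect between the days numbered 112. There were 187 with DESeq2, 37 unscaled, 374 without a filter, 30 with limma-voom and 869 with only those groups. Members numbered 0, against 1 with DESeq2, 1 without a filter and 2 with only those groups. Genes called in relapse against vehicle numbered 22, against 120 with DESeq2, 267 without a filter, 7 with only those groups and 6 against day 14 alone, and members 0, against 1 with DESeq2 and 2 without a filter. Between the vehicle groups 33 genes passed without a filter and 236 with only those groups. The replicate numbers of the labels did not pair the libraries: 2 of 23 same-numbered pairs correlated above 0.1 in their deviations (median 0.014), against 6 of 54 others. With a replicate block 1 member, Perp, passed in the difference between the days (adjusted p = 0.043), Mdm4 passed in relapse against AG120 (-0.30, adjusted p = 0.0442) and was at -0.033 against vehicle, and no other member's call changed; among other named genes, the calls of Cdkn1a (0.72, adjusted p = 0.155) and Gdf15 (-1.54, adjusted p = 0.1) in relapse against vehicle and of Ercc5 (-0.56, adjusted p = 0.063) and Isg20l2 (-0.38, adjusted p = 0.105) in relapse against AG120 were lost. With 1 library left out, genes called ranged from 3716 to 3873 at day 5, 2752 (without vehicle day 14 replicate 2) to 3003 at day 14, 13 to 61 between the days, 8 to 117 in relapse against vehicle and 5579 to 6514 in relapse against AG120, and members from 7 to 8, 5 to 6, 0 to 0, 0 to 1 and 8 to 9. Signs then changed within -0.022 to 0.22 (Trp53) and -0.28 to 0.037 (Mdm2) at day 14; -0.92 to 0.14 (Phlda3), -0.049 to 0.24 (Ccng1), -0.080 to 0.22 (Aen), -0.48 to 0.070 (Rpl23), -0.25 to 0.070 (Zmat2) and -0.46 to 0.027 (Isg20l2) between the days; -0.038 to 0.077 (Mdm4) and -0.089 to 0.10 (Zmat2) in relapse against vehicle; -0.32 to 0.25 (Zmat3) in relapse against AG120; and -0.0078 to 0.31 (Perp), -0.16 to 0.13 (Ccng1), -0.78 to 0.059 (Trp53inp1) and -0.92 to 0.71 (Ier5) between the vehicle groups. At this depth the low counts of Phlda3, Zmat3 and Trp53inp1 limit what could be called.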
